A study of Homo sapiens with 4 samples.

Results

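The 10 genes described here encode transcription factors of haematopoietic stem and progenitor cells: ERG, MYB, GATA2, LMO2, RUNX1, FLI1, LYL1, IKZF1, GFI1 and ETV6. They were chosen by name, and all 10 were found among the 18885 genes of the RNA-seq table. RNA was taken from MV4-11, an established human AML line with a KMT2A-AFF1 fusion and an internal tandem duplication of FLT3, and the comparison asks how loss of ANP32B, a histone chaperone, changed these cells. The 2 libraries of the control group are called sh-NC after the paper, although the sample labels describe untreated cells with no shRNA. The 2 libraries of the knockdown group, sh-ANP32B, came from cells that carried an shRNA against ANP32B. The paper used several such shRNAs, and the sample titles do not state which of them these libraries carried. Effects of an shRNA on other genes therefore cannot be told apart from loss of ANP32B. The paper selected infected cells with puromycin, so if the control cells carried no vector, infection and selection cannot be told apart from loss of ANP32B. Nothing in the labels ties the libraries of a group to separate cultures, so each p-value measures the spread between these libraries, which may be technical.

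Transcription factors of this kind set which genes a blood progenitor can use. ERG, FLI1, GATA2, LMO2, LYL1 and RUNX1, together with TAL1, are known as the heptad, a group of factors that bind shared enhancers in stem and progenitor cells, including enhancers of one another. LMO2 does not bind DNA itself and bridges GATA factors to dimers of a bHLH factor (LYL1 or TAL1) with an E protein, through LDB1. MYB sustains proliferation of progenitors and is required by many leukaemias with a KMT2A fusion. GFI1 and ETV6 are repressors, and IKZF1 (Ikaros) directs lymphoid and myeloid choices. ERG, GATA2 and MYB usually decline as progenitors mature.

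Values are TPM, in which reads are divided by gene length and each library is set to a common total, so levels of different genes can be compared. The library totals ran from 997271 to 998546 TPM, and the depth behind them is unknown. ANP32B itself had 358 and 364 TPM in sh-NC and 54.1 and 49.3 TPM in sh-ANP32B, which left 14.3% of the control mean. Each log2 fold change below is the mean of log2(TPM + 1) in sh-ANP32B minus that in sh-NC, tested with limma over 16937 genes with Benjamini-Hochberg adjustment. A gene is said to have risen or fallen where its adjusted p was below 0.05 and its log2 fold change lay beyond 0.5 in either direction, the fold limit of the paper. By that rule 10.1% of all genes tested fell and 17.9% rose, 28.0% in all. All 9 genes listed as marks of this line's identity were measured, among them the leukocyte gene PTPRC (CD45), with 62.3 and 64.1 TPM in sh-NC, and the KMT2A fusion target HOXA9, with 184 and 186 TPM in sh-NC.

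After ANP32B knockdown, LMO2 rose 2.03-fold and ERG fell to 48.3% of its control mean, whereas the other 8 genes did not pass the test. Thus 1 of 10 genes rose and 1 of 10 fell, shares that can be read against the 17.9% and 10.1% of all genes. LYL1 was lower by a small margin that passed the limit on p but not that on fold. With no fold limit, 2 of the 10 genes (ERG and LYL1) were lower and 1 (LMO2) higher, beside 19.7% and 26.0% of all genes. With a fold limit of 1, 0 were lower and 1 was higher in limma, beside 1.61% and 6.71% of all genes. At an unadjusted p and the limit of 0.5, 1 was lower and 1 higher, beside 10.8% and 20.2% of all genes. The median log2 fold change of the 10 genes was -0.09, beside 0.08 for all genes tested, and 6 of 10 values were negative. An absolute log2 fold change under 0.25 was found for 7 of the 10 genes (70%) and for 37.1% of all genes tested. That count depends on the cut and the scaling. LYL1 (-0.248) lay just under the cut, and LYL1 (-0.35) and FLI1 (-0.28) lay beyond it under median-of-ratios scaling. GATA2 lay under it (0.07) after quantile normalization. The libraries of the groups did not overlap for 8 of the 10 genes, beside 74.7% of all genes tested.

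**Figure D1:**
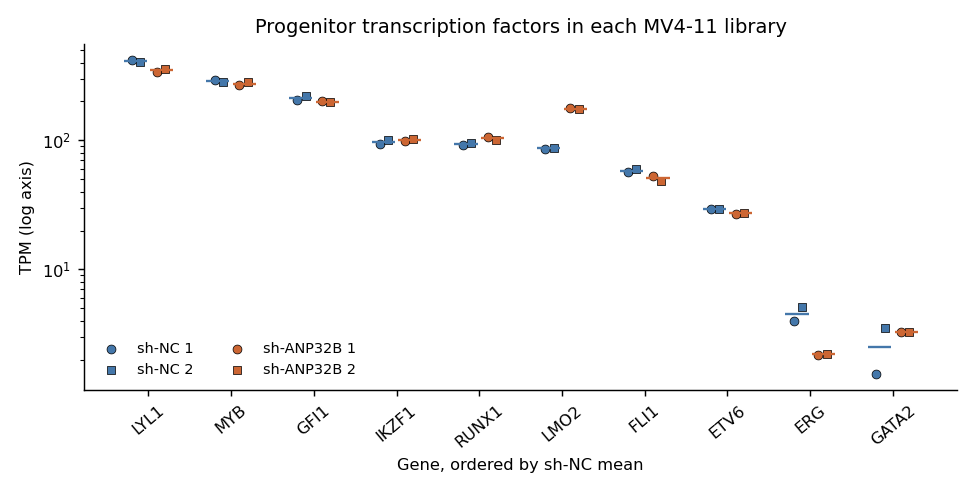
TPM of each gene (log axis) in each of the 4 MV4-11 libraries, blue for sh-NC and orange for sh-ANP32B, with circles for replicate 1, squares for replicate 2 and a short line at each group mean. LMO2 moves up and ERG moves down between the groups, while LYL1, MYB and GFI1 hold the highest levels in both.

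In the sh-NC libraries the mean levels descended from LYL1 (414 TPM) through MYB (290 TPM) and GFI1 (213 TPM) to IKZF1 (97.5 TPM), RUNX1 (93.9 TPM) and LMO2 (86.5 TPM). FLI1 (58.2 TPM) and ETV6 (29.4 TPM) followed, and ERG (4.54 TPM) and GATA2 (2.53 TPM) were far lower. The libraries of IKZF1 and RUNX1 overlapped, so the order of these neighbours is not resolved, and all other neighbours had separate ranges in sh-NC. By mean TPM, LYL1 stood at percentile 98.3 and GATA2 at percentile 22.3 of the genes tested. In sh-ANP32B, LMO2 (176 TPM) stood above RUNX1 and IKZF1, whose libraries again overlapped, and GATA2 (3.26 TPM) stood above ERG (2.19 TPM). The first 3 places did not change.

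ERG, an ETS family activator needed to maintain stem cells, is encoded on chromosome 21 (minus strand, 38380027 to 38661780 in hg38). It was scarcely expressed, with 3.997 and 5.08 TPM in the control libraries and 2.18 and 2.21 TPM in the knockdown libraries. Both knockdown libraries lay below both control libraries, although the control libraries differed from each other by more than the knockdown libraries did. The difference was -0.79 on the log2 scale, with a standard error of 0.182 and an adjusted p of 0.0178 in limma. On this scale the change of so low a gene is understated, and with a pseudocount of 0.1 it was -1.01. Without sh-NC replicate 2 ERG no longer passed (log2 fold change -0.65, adjusted p = 0.0887 from limma), nor did it without sh-ANP32B replicate 1 (-0.78, adjusted p = 0.0551) or without sh-ANP32B replicate 2 (-0.79, adjusted p = 0.0534).

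The 250 bases before 3 annotated starts of ERG are printed because the gene-level TPM adds up transcripts from all of them and cannot say which start changed. They come from RefSeq on GRCh38.p14 and are written on the strand of the gene, with capitals at GGAA, the core letters bound by ETS factors, and at GATAA, letters bound by GATA factors, each on either strand. Those motifs cannot share bases.
ERG upstream start, chr21:38660668-38660917, minus strand: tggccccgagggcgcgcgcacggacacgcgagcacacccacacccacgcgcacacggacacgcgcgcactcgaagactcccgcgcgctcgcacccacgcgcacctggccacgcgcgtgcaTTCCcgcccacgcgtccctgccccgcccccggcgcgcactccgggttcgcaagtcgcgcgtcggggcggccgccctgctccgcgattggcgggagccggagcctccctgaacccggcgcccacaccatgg
ERG middle start, chr21:38584946-38585195, minus strand: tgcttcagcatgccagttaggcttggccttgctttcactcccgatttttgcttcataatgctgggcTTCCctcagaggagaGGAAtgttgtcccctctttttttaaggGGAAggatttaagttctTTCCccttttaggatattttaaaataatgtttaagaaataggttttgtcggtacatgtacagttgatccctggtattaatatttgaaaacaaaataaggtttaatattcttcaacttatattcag
ERG downstream start, chr21:38498505-38498754, minus strand: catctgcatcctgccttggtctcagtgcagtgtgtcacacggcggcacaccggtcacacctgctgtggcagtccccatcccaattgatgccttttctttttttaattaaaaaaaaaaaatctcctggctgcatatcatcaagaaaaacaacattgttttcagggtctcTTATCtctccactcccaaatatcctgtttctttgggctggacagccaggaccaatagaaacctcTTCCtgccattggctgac
The upstream window is rich in G and C (77.2%), while the middle (36.4%) and downstream (46.4%) windows are not. GGAA was found in all 3 and in 92.7% of all 35116 windows of the same length, and GATAA was found in the downstream window and in 20.4% of all windows. Over the 8 of 10 genes with a window, 16 windows in all, GGAA was in 14 and GATAA in 4. These counts include another ERG window, chr21:38498478-38498727, which is not printed because it lies largely within the downstream one and holds the same GATAA match. LMO2 and FLI1 had no window.

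The remaining ETS members varied less. FLI1, the closest relative of ERG among the 10 genes and an activator in stem cells and megakaryocytes, had 56.9 and 59.5 TPM in sh-NC and 53.2 and 48.8 TPM in sh-ANP32B. Its log2 fold change was -0.19 (95% interval -0.35 to -0.03, adjusted p = 0.0618 from limma). The fold limit lay outside this interval, which measures only the spread between these libraries. ETV6, an ETS repressor needed for haematopoiesis in the bone marrow, had 29.6 and 29.2 TPM against 26.9 and 27.6 TPM (log2 fold change -0.11, 95% interval -0.27 to 0.06). For both genes the knockdown libraries were the lower ones, without overlap. Within each library the ratio of ERG to FLI1, which does not change when a library is multiplied by a factor, was 0.0702 and 0.0854 in the controls and 0.0410 and 0.0452 after knockdown. Among ETS factors outside the 10 genes, ETS1 rose from 21.5 and 22.6 TPM to 34.9 and 35.5 TPM (log2 fold change 0.65, adjusted p = 0.00111 from limma). ELF1 had a log2 fold change of 0.38, inside the fold limit. SPI1 (PU.1), which drives myeloid maturation, rose from 250.3 and 257 TPM to 361 and 361 TPM (log2 fold change 0.51, adjusted p = 3.35e-04 from limma). That rise was at the edge of the fold limit, with log2 fold changes of 0.41 under median-of-ratios scaling and 0.49 without sh-NC replicate 1.

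LMO2, the bridging subunit of the complex described above, is encoded on chromosome 11 (minus strand, 33858576 to 33892076). It had 85.3 and 87.7 TPM in sh-NC and 177 and 175 TPM in sh-ANP32B, a mean of 86.5 ± 1.66 TPM against 176 ± 1.25 TPM (SD, n = 2). The gap between the groups was far wider than the spread inside either of them. On the log2 scale LMO2 was higher by 1.02 with a standard error of 0.0417 (adjusted p = 1.04e-04 from limma), or by 0.94 relative to the median of all genes, and 6.70% of the genes tested had a higher value. Leaving out any 1 library gave values from 1.00 to 1.03.

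Among the DNA-binding partners of LMO2, LYL1 and the E proteins TCF3 and TCF12 did not rise with it. The direction of GATA2 was not settled, as described below. LYL1, the bHLH partner and the most abundant of the 10 genes, had 421 and 407 TPM in sh-NC and 340 and 356 TPM in sh-ANP32B (log2 fold change -0.25, standard error 0.0413, adjusted p = 0.00566 from limma). Its groups did not overlap, and its adjusted p was 0.0630 when limma was run without a trend of variance on expression. The E protein TCF3, with which LYL1 pairs, fell from 148 and 152 TPM to 103 and 103 TPM (log2 fold change -0.54, adjusted p = 4.32e-04 from limma). Another E protein, TCF12, had 41.9 and 49.3 TPM against 29.9 and 34.3 TPM and a value of -0.49, just inside the fold limit, and it is named here after its values were seen. TCF12 passed under quantile normalization (-0.51), under median-of-ratios scaling (-0.59) and with a pseudocount of 0.1 (-0.50). It stayed inside the limit without mitochondrial genome genes (-0.46), and its adjusted p in limma was 0.0517 without a variance trend. With 1 library left out, its value ran from -0.61 (without sh-NC replicate 1) to -0.38 (without sh-NC replicate 2). LDB1, which joins LMO2 molecules, had 119 and 130 TPM in sh-NC and 155 and 150.4 TPM in sh-ANP32B (log2 fold change 0.30, adjusted p = 0.00842 from limma). CBFA2T3 (ETO2), a corepressor found in this complex, rose from 19.7 and 20.7 TPM to 31.9 and 27.9 TPM (log2 fold change 0.54, adjusted p = 0.00570 from limma), but its fold change was 0.45 under median-of-ratios scaling and 0.45 without sh-ANP32B replicate 1. ID2, which binds E proteins and keeps them off DNA and was listed among other progenitor factors, rose from 41.5 and 38.3 TPM to 94.2 and 91.9 TPM (log2 fold change 1.20, adjusted p = 1.57e-04 from limma).

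The balance between these subunits, and that of ID2 to TCF3, can be given as ratios of TPM inside each library. The ratio of LMO2 to LYL1 was 0.203 and 0.216 in the control libraries and 0.519 and 0.491 in the knockdown libraries, a 2.42-fold higher mean. The ratio of LMO2 to TCF3 was 0.578 and 0.576 against 1.72 and 1.70. For LMO2 to LDB1 it was 0.716 and 0.676 against 1.14 and 1.16. For ID2 to TCF3 it was 0.281 and 0.251 against 0.915 and 0.896. In each of these ratios the knockdown libraries stood above both control libraries. With 2 libraries per group an exact two-sided permutation test cannot give a p below 0.333, so none is given.

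GATA2, the zinc finger factor that LMO2 joins to these dimers in stem cells and mast cell precursors, lies on chromosome 3 from 128479427 to 128493201 and was near the lower end of what was tested. It had 1.54 and 3.51 TPM in sh-NC and 3.27 and 3.25 TPM in sh-ANP32B, so the groups overlapped and the control libraries disagreed. The log2 fold change was 0.33 with a 95% interval from -0.42 to 1.08 (adjusted p = 0.408 from limma). Without sh-NC replicate 1 it was -0.083, and without sh-NC replicate 2 it was 0.75, so neither a direction nor a size was settled by these libraries. GATA2 shares 78 exonic bases with the antisense gene GATA2-AS1, which had 8.91 and 10.03 TPM in sh-NC, more than GATA2 itself, and without strand information reads there could count for either gene. TAL1, the last heptad factor, was not analysed here.

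**Figure D2:**
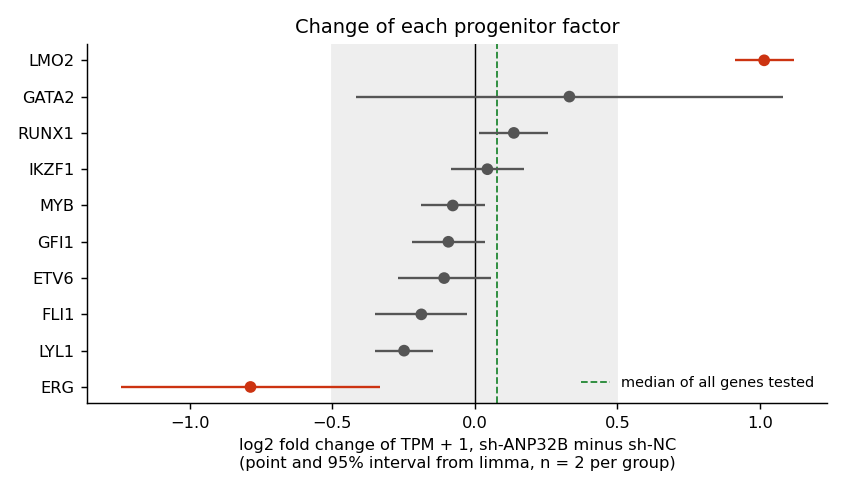
Log2 fold change of TPM + 1 (sh-ANP32B minus sh-NC) for each gene with its 95% interval from limma, n = 2 per group. Red marks the genes that passed the test, LMO2 and ERG, the grey band marks the fold limit of 0.5 and the dashed line is the median of all genes tested (0.08). The intervals of GATA2 and ERG are the widest of the 10.

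RUNX1, the DNA-binding subunit of core binding factor, had 91.8 and 95.9 TPM in sh-NC and 105 and 101 TPM in sh-ANP32B. The knockdown libraries were the higher ones without overlap, with a log2 fold change of 0.14 (95% interval 0.02 to 0.26, adjusted p = 0.0676 from limma). CBFB, its partner, which stabilises its binding to DNA, had 91.7 and 91.9 TPM against 82.9 and 82.4 TPM (log2 fold change -0.15, adjusted p = 0.0375 from limma). The ratio of RUNX1 to CBFB was 1.00 and 1.04 in the controls and 1.27 and 1.23 after knockdown. RUNX1 relative to the median of all genes was 0.06, and its log2 fold change was 0.04 under median-of-ratios scaling.

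MYB, on the plus strand of chromosome 6 from 135181308 to 135219173, had 295 and 284 TPM in sh-NC and 267 and 282 TPM in sh-ANP32B. The libraries of the groups were close without overlap, and the log2 fold change was -0.08 (95% interval -0.19 to 0.03, adjusted p = 0.210 from limma), with a value of 0.0012 under quantile normalization. Its relative MYBL2, which acts in proliferating cells to turn on genes of late cell cycle, fell from 166 and 168 TPM to 82.7 and 80.2 TPM (log2 fold change -1.03, adjusted p = 1.08e-04 from limma). The ratio of MYBL2 to MYB was 0.561 and 0.592 against 0.310 and 0.284. MYBL1, the third member of the family, was rare, with 8.89 and 8.16 TPM against 5.77 and 6.24 TPM (log2 fold change -0.44, adjusted p = 0.0360 from limma). MYBL1 passed under quantile normalization (-0.63) and median-of-ratios scaling (-0.53), while its adjusted p in limma was 0.0653 in the fit with a replicate block and ran from 0.0710 to 0.146 with 1 library left out.

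GFI1, a repressor that restrains proliferation of stem cells and favours granulocytes over monocytes, had 204 and 222 TPM in sh-NC and 200.2 and 198 TPM in sh-ANP32B. Its log2 fold change was -0.09 (95% interval -0.22 to 0.04, adjusted p = 0.194 from limma). IKZF1 had 94.1 and 101 TPM against 99.4 and 101 TPM, overlapping groups with a log2 fold change of 0.04 (95% interval -0.09 to 0.17, adjusted p = 0.526 from limma), which was -0.052 under median-of-ratios scaling. For both factors the fold limit lay outside the interval, which measures only the spread between these libraries. Of the histone-modifying corepressors that such factors recruit, HDAC2 fell from 57.3 and 49.7 TPM to 38.8 and 35.3 TPM (log2 fold change -0.51, adjusted p = 0.00673 from limma). Its fold change was -0.41 without sh-NC replicate 1 and -0.45 without sh-ANP32B replicate 2, both inside the limit, as was the value without mitochondrial genome genes (-0.48). KDM1A, the demethylase that GFI1 brings to DNA, had 142 and 146 TPM against 110.3 and 112 TPM (log2 fold change -0.37, adjusted p = 0.00134 from limma).

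The values also depended on how the libraries were scaled. The median over all genes tested was 0.08 with the deposited TPM, -0.0045 under median-of-ratios scaling, -0.04 under quantile normalization and 0.11 when mitochondrial genome genes were left out. Genes that fell made up 36.1% of all calls on the deposited TPM and 49.8% after quantile normalization. Across these 3 scalings LMO2 ranged from 0.92 to 1.05 and ERG from -1.05 to -0.79, and both passed in each. No other of the 10 genes passed under any of them.

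**Figure D3:**
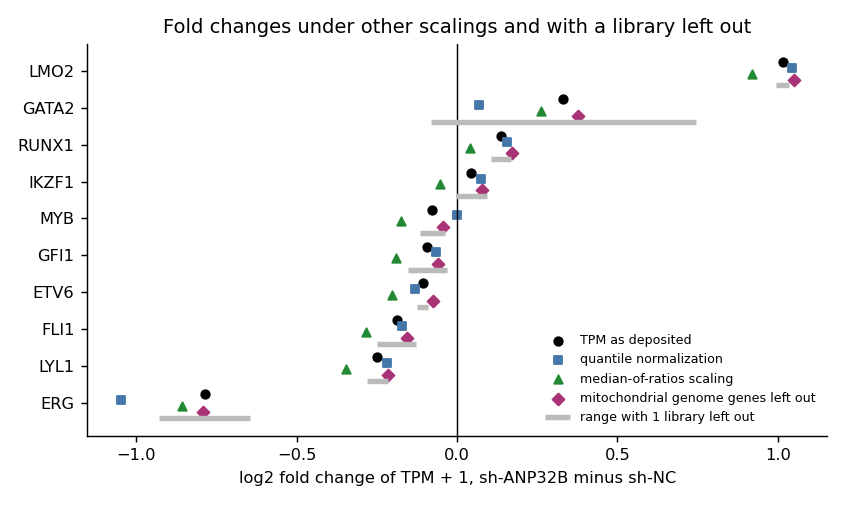
Log2 fold change of each gene on the TPM as deposited (circles) and under quantile normalization (squares), median-of-ratios scaling (triangles) and without mitochondrial genome genes (diamonds), with a grey bar for the range when 1 library was left out. LMO2 and ERG keep their sides under every scaling, MYB and IKZF1 sit near 0, and GATA2 has the widest bar, from -0.083 to 0.75.

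The lists, 4 in number, of genes that act with or near these factors held 87 genes besides the 10, of which 68 were tested. Of these, 12 fell (17.6%) and 7 rose (10.3%), beside 10.1% and 17.9% of all genes tested. Of 22 partners and cofactors, 2 fell (TCF3 and HDAC2), 1 rose (CBFA2T3) and 19 did not pass, and the median of the list was -0.13. Under median-of-ratios scaling 4 of the 22 fell and 0 rose, under quantile normalization 3 fell and 1 rose, and without mitochondrial genome genes 1 fell and 1 rose. With 1 library left out, 2 to 3 fell and 0 to 3 rose, the 3 without sh-NC replicate 2 and the 0 without sh-ANP32B replicate 1. Of 16 family relatives tested, MYBL2 fell, ETS1 rose and 14 did not pass, with a median of -0.02.

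Of 17 other progenitor factors tested, 6 fell and 3 rose, beside 10.1% and 17.9% of all genes tested, with a median of -0.15. ZBTB16 (log2 fold change -0.97), BMI1 (-0.72), HOXA10 (-0.64), MEIS1 (-0.61), SOX4 (-0.57) and BCL11A (-0.56) fell. ID2, NFE2 (0.99), an erythroid and megakaryocyte factor, and MEF2C (0.90) rose. The HOX cofactor MEIS1 had 44.2 and 47.9 TPM in sh-NC and 30.2 and 29.6 TPM in sh-ANP32B (adjusted p = 0.00138 from limma), whereas HOXA9 had 184 and 186 TPM against 175 and 176 TPM (log2 fold change -0.07, adjusted p = 0.155 from limma). BMI1 shares 1000 exonic bases with the readthrough gene COMMD3-BMI1 (0.871 and 1.24 TPM in sh-NC). MEIS1 shares 1437 exonic bases with the antisense gene MEIS1-AS2 (0.336 and 1.56 TPM in sh-NC). HOXA10 shares 368 and HOXA9 shares 397 with the same further gene on their strand (0.182 and 13.0 TPM in sh-NC). With the antisense gene HOXA10-AS (20.0 and 22.6 TPM in sh-NC), HOXA10 shares 608 and HOXA9 shares 422. Reads in these stretches could count for either gene. ZBTB16, with 5.32 and 9.08 TPM in sh-NC, did not pass when sh-NC replicate 2, sh-ANP32B replicate 1 or sh-ANP32B replicate 2 was left out (adjusted p from 0.0561 to 0.0719 in limma). BCL11A had fold changes of -0.46 without sh-NC replicate 2 and -0.46 without sh-ANP32B replicate 1, inside the limit.

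Among 15 tested genes that are described as targets of these factors, 3 fell, 2 rose and 10 did not pass, with a median of 0.09. Of all genes tested, 10.1% fell and 17.9% rose. The genes that fell were BCL2, the survival gene described as a MYB target, from 10.3 and 10.4 TPM to 4.87 and 4.41 TPM, MYC (log2 fold change -0.65) and ADA (-0.62). SPI1 and ELANE rose. ELANE, neutrophil elastase, went from 666 and 652 TPM to 1636 and 1656 TPM (log2 fold change 1.32, adjusted p = 5.07e-05 from limma), while the other granule protease family genes AZU1 (0.49), CTSG (0.28) and PRTN3 (0.23) stayed inside the fold limit. AZU1 was 0.69 and passed without sh-ANP32B replicate 2, and it also passed under quantile normalization (0.53) and without mitochondrial genome genes (0.52). KIT, the stem cell factor receptor, was rare and uneven in sh-ANP32B, with 2.30 and 2.57 TPM against 3.48 and 1.17 TPM. CEBPA had 407 and 413 TPM against 438 and 434 TPM (log2 fold change 0.09, adjusted p = 0.0822 from limma).

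**Figure D4:**
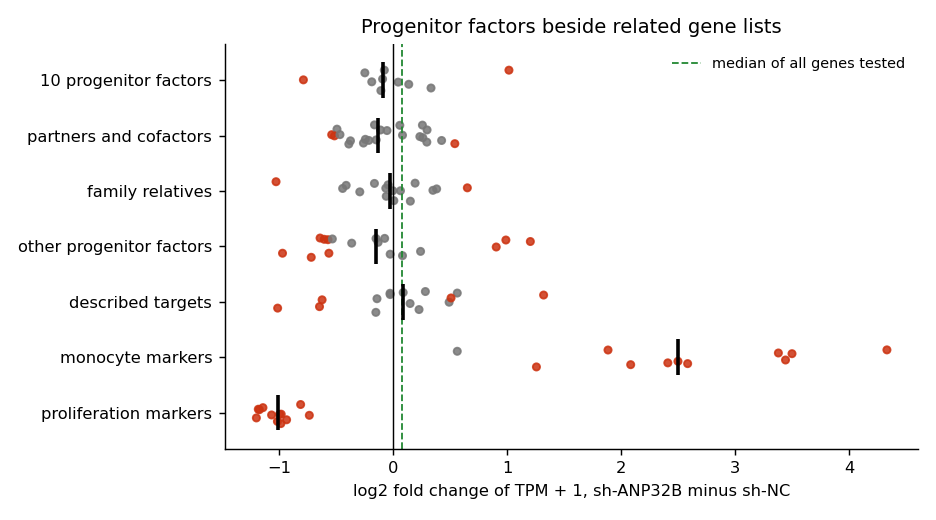
Log2 fold change of TPM + 1 (sh-ANP32B minus sh-NC) for each tested gene of 7 lists, red where it passed the test and grey where it did not, with a black bar at the median of the list and a dashed line at the median of all genes tested. The medians of the 10 progenitor factors, their partners and relatives lie near 0, with single genes such as LMO2 (1.02) and MYBL2 (-1.03) far from it, while all 11 monocyte markers are positive and all 12 proliferation markers are negative.

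Monocyte markers and proliferation markers moved with the knockdown in these bulk libraries, where fewer cells of a type and less RNA per cell cannot be told apart. Of 11 monocyte markers tested, 10 rose. The median of the list was 2.50 on the log2 scale, and its sum ran from 563 to 574 TPM in sh-NC and from 6054 to 6088 TPM in sh-ANP32B. CD14, FCGR3A, CD163, MRC1 and VCAN were not analysed here. All 12 proliferation markers fell, with a median of -1.01 and sums of 2280 to 2309 TPM against 1103 to 1108 TPM. The part of either change in the values of LMO2, ERG, MYBL2 and the other genes was not tested. The sum of the 10 progenitor factors was 1283 and 1294 TPM in sh-NC and 1275 and 1296 TPM in sh-ANP32B. That sum holds changes in opposite directions, since mean LMO2 was higher in sh-ANP32B (176 against 86.5 TPM) and mean LYL1 lower (348 against 414 TPM).

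Over the 4 libraries, profiles of log2(TPM + 1) less the gene mean were compared by Euclidean distance with genes of at least 10 TPM on average. The nearest to LMO2 were MT-TF (distance 0.0271), SLC25A23 (0.0328) and MMP25-AS1 (0.0350), and the nearest to ERG were ESPL1 (0.0432), SPINDOC (0.0666) and MCM8 (0.0859). As the 4 libraries form 2 groups, a small distance here mostly means a similar difference between the groups.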

How the data were processed

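RNA-seq libraries of MV4-11 cells, 2 of sh-NC and 2 of sh-ANP32B, were grouped by the sample titles. Per the submitters' processing notes, HISAT2 (2.0.5) and hg38 were used, and the authors deposited 1 TPM value for each gene in each library. That unit was inferred from the library totals, and the quantification tool, annotation and strand setting are not given in the sources used here. The knockdown columns carry the mark S3, which the labels do not explain. The lowest gene mean was 0.500 TPM, and symbols were matched for 14961 of 18885 identifiers. Positions and overlaps come from GENCODE 44 on hg38, and promoter windows from RefSeq.

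A gene was tested if 2 or more libraries had 1 TPM or more, on log2(TPM + 1) with limma (3.58.1 in R 4.3.3; lmFit, eBayes with a trend), unpaired, with Benjamini-Hochberg adjustment over all of them. The DESeq2 test of the paper needs counts and was not run. The method was tested on simulated data. Python 3.11.15, pandas 2.3.3 and matplotlib 3.10.9 were used.

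The 10 genes and all lists (partners, relatives, other progenitor factors, targets, surface, lineage, monocyte and proliferation markers) were chosen with earlier results of these data known. The naming rule covered the 10 genes, ANP32B, 12 genes fixed by name and the 3 nearest profiles of LMO2 and ERG. It also covered up to 5 genes of each list with the largest changes in each direction that passed. Not every gene under this rule is named. Monocyte and proliferation markers are given as counts, medians and sums instead. TAL1, GFI1B, CD34 and MPO, which were fixed by name, were not analysed here. TCF12, KDM1A, MYBL1, ELF1, HOXA9, FLT3, AZU1, CTSG and PRTN3 were named after their values were seen. Alternatives covered scaling, pseudocount, filters, the replicate block, each library left out, the variance trend and the call rule. The median absolute difference between replicates was 0.122 in sh-NC and 0.125 in sh-ANP32B on the log2 scale. The result for 1 listed gene is not reported here.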

Additional observations from a re-analysis of the deposited data

How the results depend on the processing

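LMO2 passed under every alternative run (log2 fold change 0.92 to 1.05, adjusted p 6.68e-05 to 0.00739 in limma), and ANP32B did so too. ERG stayed negative in all of them and lost its call when 1 of 3 libraries was left out (range over libraries left out -0.93 to -0.65). Values of the other genes changed sign for MYB under quantile normalization (0.0012), for IKZF1 and CEBPA under median-of-ratios scaling (-0.052 and -0.0093), and with a library left out for GATA2 (-0.083 to 0.75), IKZF1 (-0.0046 to 0.093) and KIT (-0.67 to 0.38). The cause was not tested. Of the 10 genes, 2 fell at an adjusted p with no fold limit, 0 in limma at a fold limit of 1 (1 at an unadjusted p and the limit of 0.5) and 0 to 1 with a library left out. Of the 68 genes tested over the 4 lists, 22 fell and 17 rose with no fold limit, beside 19.7% and 26.0% of all genes. At a limit of 1, 2 of the 68 fell and 2 rose, beside 1.61% and 6.71% of all genes. Same-numbered libraries did not deviate together (correlation -0.0232). In a fit with replicate number as the block, 1 of the 10 genes fell and 1 rose, the adjusted p in limma was 0.00115 for LMO2, and no call of the 10 genes changed. TPM keep no read numbers, so no counting error can be given for ERG and GATA2.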

Other observations

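Lineage markers outside the monocyte list did not move in a common direction. The tryptase genes TPSAB1 and TPSB2 of mast cells and basophils rose, TPSAB1 from 643 and 653 TPM to 1270 and 1290 TPM (log2 fold change 0.98, adjusted p = 7.08e-05 from limma) and TPSB2 with a log2 fold change of 1.08. Their sequences are nearly identical, so reads may have been split between them. The remaining gene tested from that list, MS4A2, did not pass and had lower values after knockdown (3.201 and 4.02 TPM against 2.48 and 1.68 TPM, log2 fold change -0.59), and it is named after its values were seen. Of 6 B lymphoid genes tested, 2 fell and 1 rose, beside 10.1% and 17.9% of all genes tested. Their log2 fold changes were negative for 5 and positive for 1, with a median of -0.35. The sum of that list was 26.3 and 28.4 TPM in sh-NC and 9.82 and 11.4 TPM in sh-ANP32B. IGLL1, a part of the surrogate light chain, fell from 11.5 and 12.4 TPM to 1.23 and 0.645 TPM. Its log2 fold change was -2.76 (adjusted p = 3.71e-04 from limma). CD22 had 0.448 and 0.236 TPM against 1.24 and 1.28 TPM (log2 fold change 0.76, adjusted p = 0.0453 from limma). It did not pass under quantile normalization (adjusted p = 0.140 in limma), under median-of-ratios scaling (0.0535), with a pseudocount of 0.1 (0.0594), with a replicate block (0.0684), without sh-NC replicate 1 (0.0953) or without sh-NC replicate 2 (0.162). Neither of the 2 erythroid genes tested passed. GP1BA of megakaryocytes and CD2 of T cells, the single genes tested from their lists, rose from low levels (log2 fold changes 1.05 and 1.64). Of 10 progenitor surface genes tested, ITGA4 fell (-0.70), although 2813 of its exonic bases are shared with CERKL on the opposite strand, and PTPRC (1.15), IL3RA (0.94) and SPN (0.59) rose, SPN with 0.49 under median-of-ratios scaling, inside the fold limit. FLT3 had 6.20 and 6.30 TPM against 5.52 and 5.53 TPM and did not pass.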
